A study of Mus musculus with 23 samples.

Results

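THRAP3 is an RNA-binding protein and transcriptional coregulator that associates with the splicing machinery and can be brought to chromatin by DNA-binding factors, CLOCK and BMAL1 among them. Chromatin immunoprecipitation followed by sequencing (ChIP-seq) was used to map where THRAP3 lies on DNA in Bmal1-/- and WT β cells. The sites described here are the distal shared peaks. Each is a THRAP3 peak of WT replicate 2 that shared at least 1 bp with a peak of Bmal1-/- replicate 1 and with a peak of Bmal1-/- replicate 2, overlapped no peak of WT replicate 1, and had its centre more than 1 kb from every annotated transcription start site (TSS). Of 6128 peaks in WT replicate 2, 3087 overlapped a peak of Bmal1-/- replicate 1 and 2302 overlapped peaks of both Bmal1-/- libraries. Of those, 1819 had no counterpart in WT replicate 1 and 1388 of the 1819 were distal. Among the 1388, 2 lay on unplaced scaffolds, so positions, sequences and genes are given for the 1386 on assembled chromosomes.

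The cells were β-TC6, a mouse insulinoma line derived from transgenic animals of C57BL/6 background that still makes insulin, at passages 5 to 15. The Bmal1-/- line carried a CRISPR-Cas9 deletion of exon 8 of Bmal1 (gene symbol Arntl), the Clock-/- line a deletion of exons 6 to 7 of Clock, and WT cells no deletion. Each knockout line was 1 hand-picked clone, so genotype and clone cannot be told apart. ChIP-seq had 2 libraries per genotype (Bmal1-/- and WT) with 1 input library for each, and RNA-seq had 3 libraries for each of Bmal1-/-, Clock-/- and WT cells.

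WT replicate 1 stood apart from the other ChIP-seq libraries. The peak lists held 12949 and 12226 peaks in the Bmal1-/- libraries, against 808 and 6128 in the WT libraries, and the peak caller's estimate of the share of tags in peaks was 1.86% and 1.67% in Bmal1-/-, against 0.11% and 0.76% in WT. Depth was similar, at 12734067 and 14961095 tags in Bmal1-/- and 12296107 and 12882958 in WT. Absence from WT replicate 1, which the selection uses, therefore comes from the library with the fewest peaks. WT replicate 2 has the same genotype and by the rule holds every distal shared peak. Between the Bmal1-/- and WT libraries, genotype and enrichment cannot be told apart. In the RNA-seq data all 10 β-cell markers were expressed, summing to between 39340 and 42060 TPM (transcript abundance scaled by gene length and library size) in Bmal1-/- cells and between 54250 and 56690 TPM in WT cells. Markers of other islet endocrine cells summed to 130.3 to 144.8 TPM in Bmal1-/- cells and 578.1 to 596.0 TPM in WT cells. Of 15 measured exocrine, duct, stromal and immune markers, 10 stayed under 1 TPM in every library, and the 15 together summed to 15.3 to 18.7 TPM in Bmal1-/- cells and 66.7 to 75.7 TPM in WT cells. In bulk RNA, fewer cells of a type and less RNA per cell cannot be told apart, and the part of these markers in the results was not tested.

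A region bound far from promoters is often an enhancer, a stretch of DNA where sequence-specific factors collect. In β cells these include NEUROD1, which binds an E-box related to CAGATG, forkhead proteins such as FOXA2, which bind TGTTTAC, MAFA, and the FOS and JUN dimers known as AP-1, which bind TGANTCA. CLOCK and BMAL1 themselves bind the canonical E-box CACGTG. The sequences of 7 distal shared peaks are given because the results turn on them. They are the strongest intronic peak and one of similar strength, both on repeated units, and peaks beside genes of β-cell function. The others lie in Prkacb and Nqo1 and 121.7 kb from the start of Aard, genes whose expression differed in Bmal1-/- cells. All sequences are the plus strand of GRCm38.p6. Capitals mark matches on either strand to the AP-1, NEUROD1, forkhead and canonical E-box letters above.
Dock2 intron, chr11:34681785-34682007: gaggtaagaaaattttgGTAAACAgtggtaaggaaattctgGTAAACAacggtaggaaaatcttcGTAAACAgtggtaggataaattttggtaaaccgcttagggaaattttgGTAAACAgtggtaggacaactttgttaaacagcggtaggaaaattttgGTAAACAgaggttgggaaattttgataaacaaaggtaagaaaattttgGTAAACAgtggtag
Gm30524 intron, chr6:140972650-140972872: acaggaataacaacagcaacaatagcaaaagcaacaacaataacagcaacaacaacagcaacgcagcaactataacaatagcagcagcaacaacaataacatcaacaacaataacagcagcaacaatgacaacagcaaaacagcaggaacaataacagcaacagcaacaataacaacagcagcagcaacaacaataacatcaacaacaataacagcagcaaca
Aard, intergenic, chr15:52161719-52161941: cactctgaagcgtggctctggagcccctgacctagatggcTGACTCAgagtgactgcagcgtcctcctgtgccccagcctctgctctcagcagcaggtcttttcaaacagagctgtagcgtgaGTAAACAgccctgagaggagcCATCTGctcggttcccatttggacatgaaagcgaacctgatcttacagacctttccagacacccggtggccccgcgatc
Slc30a8 intron, chr15:52316263-52316485: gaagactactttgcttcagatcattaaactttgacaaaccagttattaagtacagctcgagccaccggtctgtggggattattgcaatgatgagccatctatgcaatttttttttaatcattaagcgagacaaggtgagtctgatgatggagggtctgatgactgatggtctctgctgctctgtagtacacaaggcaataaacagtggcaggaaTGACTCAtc
Ins1, intergenic, chr19:52252485-52252707: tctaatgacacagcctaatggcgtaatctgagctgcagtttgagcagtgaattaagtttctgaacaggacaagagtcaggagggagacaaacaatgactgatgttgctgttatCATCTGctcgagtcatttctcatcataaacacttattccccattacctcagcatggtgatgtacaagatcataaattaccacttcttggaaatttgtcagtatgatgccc
Prkacb intron, chr3:146766933-146767155: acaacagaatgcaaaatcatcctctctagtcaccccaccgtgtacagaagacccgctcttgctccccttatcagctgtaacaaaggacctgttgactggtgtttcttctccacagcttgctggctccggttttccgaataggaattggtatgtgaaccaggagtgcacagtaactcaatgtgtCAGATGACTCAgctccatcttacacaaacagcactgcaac
Nqo1 intron, chr8:107396515-107396737: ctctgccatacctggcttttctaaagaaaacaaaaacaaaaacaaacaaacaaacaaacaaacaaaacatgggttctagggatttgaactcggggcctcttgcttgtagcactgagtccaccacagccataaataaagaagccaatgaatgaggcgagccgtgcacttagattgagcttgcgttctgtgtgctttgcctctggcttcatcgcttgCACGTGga

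The Dock2 sequence held 6 copies of GTAAACA, the reverse complement of the forkhead letters, spaced along a tandem repeat. The Gm30524 sequence was built of short repeated units rich in A and C and held none of the capitalised motifs. The Aard peak held 1 match each to the AP-1, NEUROD1 and forkhead letters. Near Prkacb, which encodes a catalytic subunit of protein kinase A, the NEUROD1 and AP-1 letters overlapped. The Nqo1 peak held a canonical E-box at its end.

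The signal of a peak is given as the authors' normalized tag count, scaled to 10000000 tags per library. These values chose the peaks through the peak caller's thresholds and are a description with no test. Over the 1386 peaks the median signal was 15.7 in Bmal1-/- replicate 1 and 15.4 in Bmal1-/- replicate 2, against 11.6 in WT replicate 2. The middle 50% ran from 12.6 to 20.4 and from 12.7 to 19.4 in the Bmal1-/- libraries, against 9.31 to 14 in WT replicate 2. These medians stood on few tags, 20 and 23 in the Bmal1-/- libraries and 15 in WT replicate 2. For a single peak at that level, counting error alone gave 95% exact Poisson intervals of 9.59 to 24.3 and 9.75 to 23.1 in the Bmal1-/- libraries, and 6.52 to 19.2 in WT replicate 2, so a typical single peak could not be told apart between genotypes. The median log2 ratio of the mean Bmal1-/- signal to the WT replicate 2 signal was 0.43, with extremes of -0.93 and 1.95. Both Bmal1-/- values lay above the WT replicate 2 value at 1053 peaks (76.0%) and below it at 115 peaks (8.30%). All peaks of each library, whatever their place, had medians of 12.6 and 12 in Bmal1-/-, against 10.1 in WT replicate 2.

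The ratio was not particular to these peaks. Promoter peaks shared by the same libraries (n = 431) had a median log2 ratio of 0.44, and distal peaks present in all 4 libraries (n = 389) had 0.32. Distal peaks of all 4 libraries were also stronger, with medians of 27.5 and 26.7 in Bmal1-/- and 21.0 in WT replicate 2. Across the 1386 peaks, which share the peak caller and the selection, the log2 signals correlated at r = 0.72 (rho = 0.67) between the Bmal1-/- libraries. With WT replicate 2 the correlation was r = 0.50 (rho = 0.41) for Bmal1-/- replicate 1 and r = 0.55 (rho = 0.46) for Bmal1-/- replicate 2. In WT replicate 2, 1013 peaks (73.1%) reached a signal of 9.76, which equals the 12 tags that the caller required in WT replicate 1. At the edges of the rule, the nearest peak to a TSS stood 1021 bp away, against 999 bp for the farthest promoter peak of the same libraries. The smallest overlap with a Bmal1-/- peak was 2 bp and the median 173 bp.

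The 10 strongest distal shared peaks were chosen by their mean signal over the 3 libraries. An exonic peak of Per2 led with 142.9 and 35.4 in Bmal1-/- and 37.3 in WT replicate 2, with a limit on its reading that is given with the other Per2 peaks. The Dock2 peak, in an intron of a gene for a Rac exchange factor of blood cells, followed with 83.2 and 69.5 in Bmal1-/- and 54.3 in WT replicate 2. It was high in every library, and so was the Gm30524 peak, with 69.1 and 74.9 in Bmal1-/- and 52.0 in WT replicate 2. The peak in Spats2 had 69.9 and 69.5 in Bmal1-/- and 28.7 in WT replicate 2. An intergenic peak 50.3 kb from Prdx6, a peroxiredoxin gene, had 60.5 and 56.1 in Bmal1-/- and 15.5 in WT replicate 2. The remaining 5, in 4930568G15Rik, Babam2 and Per2 and near Akr1cl and Hhipl2, had WT replicate 2 signals of 24.8 to 38.8. Genes at strong peaks were not always expressed: Dock2 averaged 1.86 ± 0.13 TPM in Bmal1-/- and 2.38 ± 0.06 TPM in WT cells (SD, n = 3 each), and Akr1cl, Hhipl2 and 4930568G15Rik averaged under 1 TPM in both. Gm30524 averaged 1.25 ± 0.43 TPM in Bmal1-/- and 3.63 ± 0.55 TPM in WT cells (log2 fold change -1.05, limma adjusted p = 0.00131).

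**Figure D1:**
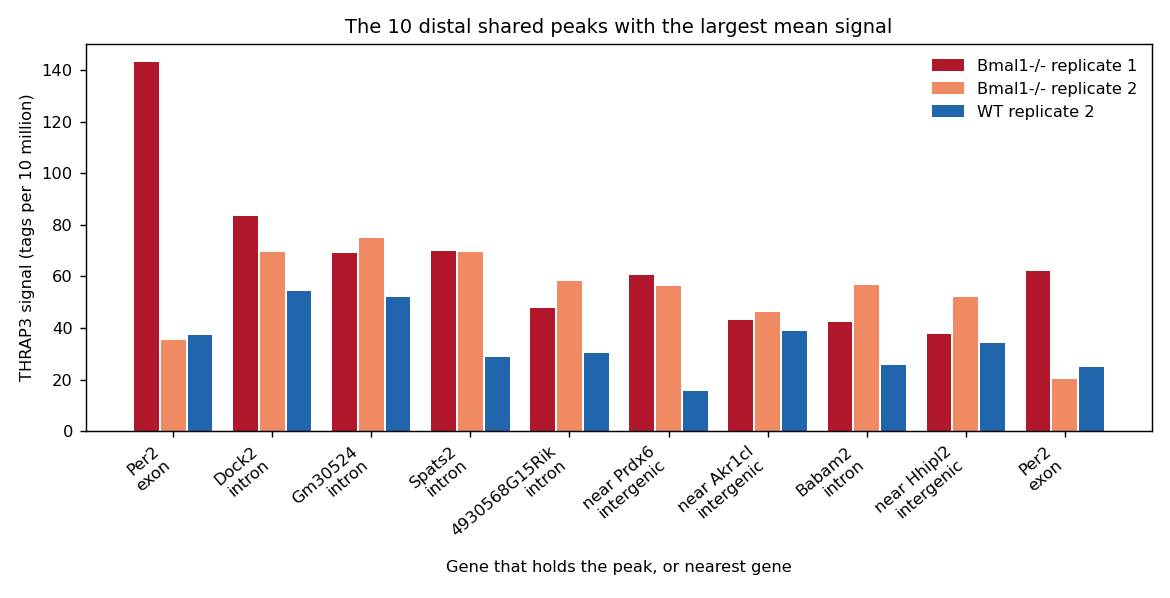
THRAP3 signal (normalized tag count, linear axis) of the 10 strongest distal shared peaks in the 2 Bmal1-/- libraries and WT replicate 2, 1 bar per library. The strongest Per2 peak was far higher in Bmal1-/- replicate 1 (142.9) than in Bmal1-/- replicate 2 (35.4) or WT replicate 2 (37.3), while the Dock2 and Gm30524 peaks differed less between the 3 libraries.

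Repeated units did not mark the peaks as a class. A sequence was counted as a tandem repeat where at least 0.6 of its bases equalled the base at some fixed distance of 2 to 60 positions further on. This held for 17 distal shared peaks (1.23%), among them 2 of the 10 strongest, and for 1.21% of every 50th window of the genome. It held for 4.88% of distal peaks in all 4 libraries and 0.318% of distal peaks found in both Bmal1-/- libraries only. On average 14.3% of the bases of a distal shared peak were masked as repeats in the assembly, and 528 peaks held no masked base.

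The widest Bmal1-/- to WT ratio belonged to an intronic peak of Clec16a, a gene of autophagy, with 34.6 and 31.4 in Bmal1-/- and 8.54 in WT replicate 2 (log2 ratio 1.95). The Prdx6 peak above followed with 1.91, and an intronic peak of Oxr1, an oxidation resistance gene, had 36.1 and 31.4 in Bmal1-/- and 10.1 in WT replicate 2 (1.74). At the other end, a peak 28.0 kb from Tubgcp3 had 10.2 and 13.4 in Bmal1-/- and 22.5 in WT replicate 2 (log2 ratio -0.93). Peaks near Gm10297 and Hacd1 had log2 ratios of -0.79 and -0.75. None of the nearest or host genes that were tested (Clec16a, Socs1, Oxr1, Prdx6, Tubgcp3 and Gm10297) passed an adjusted p of 0.01 in Bmal1-/- cells, apart from Hacd1 (log2 fold change 0.69, limma adjusted p = 0.00346). Hacd1 lost that call in 4 of 6 fits that each left out 1 library, with adjusted p = 0.0164 without WT replicate 1, 0.0130 without WT replicate 2, 0.0174 without Bmal1-/- replicate 2 and 0.0104 without Bmal1-/- replicate 3.

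By position, 750 of the 1386 peaks (54.1%) had their centre in an intron, 586 (42.3%) between genes and 50 (3.61%) in an exon. The 95% Wilson interval of the intron share was 51.5% to 56.7%, for counting error only. The shares were much the same in distal peaks of both Bmal1-/- libraries only (53.6%, 42.5% and 3.89% of 2520) and in distal peaks of all 4 libraries (54.0%, 43.4% and 2.57% of 389). The median distance to a TSS was 15.5 kb, with quartiles of 6.26 and 34.9 kb, and 73 peaks lay more than 100 kb away. Peaks were mostly solitary: 71 (5.12%) fell into 35 groups in which neighbouring centres were at most 12.5 kb apart. The single group of 3 lay in Per2. By host gene, Fgfr2, a fibroblast growth factor receptor, held 7 peaks, Pde4d, a cAMP phosphodiesterase, held 6, and Rad51b, a recombination factor, held 5. Camta1, Maml3 and Per2 held 4 each. The 7 Fgfr2 peaks had log2 ratios of -0.13 to 0.95 and those of Pde4d -0.64 to 0.66.

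Density varied from 1.58 peaks per 10 Mb on chromosome X and 2.01 on chromosome 9 to 8.63 on chromosome 4. As a share of all WT replicate 2 peaks of the chromosome, they were 31.76%, 23.15% and 23.28% in that order. The median log2 signal ratio ranged by chromosome from 0.25 on chromosome 12 (n = 70) to 0.67 on chromosome 15 (n = 74). Mean input tags at the peaks were 2.01 in Bmal1-/- and 1.62 in WT on chromosome 15, and 1.66 in Bmal1-/- and 1.77 in WT on chromosome 12, and their part in the ratios was not tested. Transcripts moved by chromosome too: the median log2 fold change of all tested genes in Bmal1-/- cells was -0.35 on chromosome 1, -0.25 on chromosome 15 and 0.35 on chromosome 11, against -0.04 over all 15031 genes. With the chromosome's median subtracted from each gene, Per2 and Mafa lost their calls and Dock2 (-0.58, limma adjusted p = 0.00254), Spats2 (0.40, adjusted p = 0.00597), Rbfox3 (-0.80, adjusted p = 9.68e-04) and Scg2 gained one among the 67 named genes that were tested.

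Sequence was not used by the selection. Of 18 motifs searched on both strands, CAGATG was in 477 distal shared peaks (34.4%), TGANTCA in 307 (22.2%) and TGTTTAC in 229 (16.5%). In all 11476653 windows of the same length (223 bp) laid end to end over the genome the shares were 16.6%, 6.61% and 3.33%. The homeodomain core TAATTA, read by PDX1 and NKX6-1, was in 11.9% of peaks and 8.00% of genome windows, and the MAF site TGCTGAC in 7.94% of peaks and 3.02% of genome windows. Between them the NEUROD1, AP-1 and forkhead letters were absent from 575 peaks (41.5%), 619 held 1 of the 3 kinds, 182 held 2 and 10 held all 3. Both AP-1 and NEUROD1 letters were in 94 peaks, and matches of different motifs were allowed to overlap. The remaining motifs were each in under 5% of the peaks. They were the canonical E-box CACGTG, the ETS core CCGGAA, the GC-box GGGCGGG, the GATA site AGATAAG (47 peaks, 3.39%, against 3.28% of genome windows), the D-box TTATGNAA (58 peaks, 4.18%, against 5.07%), the cAMP response element TGACGTCA (5 peaks, 0.361%, against 0.120%), and longer sites of CTCF, RFX, NRF1, YY1, HNF1, ROR and REV-ERB, and PPAR and HNF4, the most frequent of which, CTCF, was in 13 peaks.

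The same letters distinguished the classes of peaks. AP-1 letters were in 22.2% of distal shared peaks, against 45.5% of distal peaks in all 4 libraries, 14.5% of distal peaks in both Bmal1-/- libraries only, 16% of distal peaks in WT replicate 2 only and 8.58% of promoter peaks shared by the same libraries. NEUROD1 letters ran differently, at 34.4% of distal shared peaks, against 28.0% of distal peaks in all 4 libraries, 34.1% of those in both Bmal1-/- libraries only, 26.7% of those in WT replicate 2 only and 13.9% of the promoter peaks. Forkhead letters were in 16.5% of distal shared peaks, against 9.35% to 14.4% of the other distal classes and 4.64% of the promoter peaks. Canonical E-boxes were rare, in 48 distal shared peaks (3.46%), against 9.28% of the promoter peaks, 2.17% of genome windows and 5.79% of 32851 RefSeq promoters cut to the same length. ETS letters (CCGGAA) were in 2.96% of distal shared peaks and 20.4% of the promoter peaks, and GC-boxes (GGGCGGG) in 1.88% and 31.3%. Base composition moved with these shares, since distal shared peaks averaged 44.8% G and C, promoter peaks 60.8% and every 50th genome window 41.8%; its part was not tested.

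**Figure D2:**
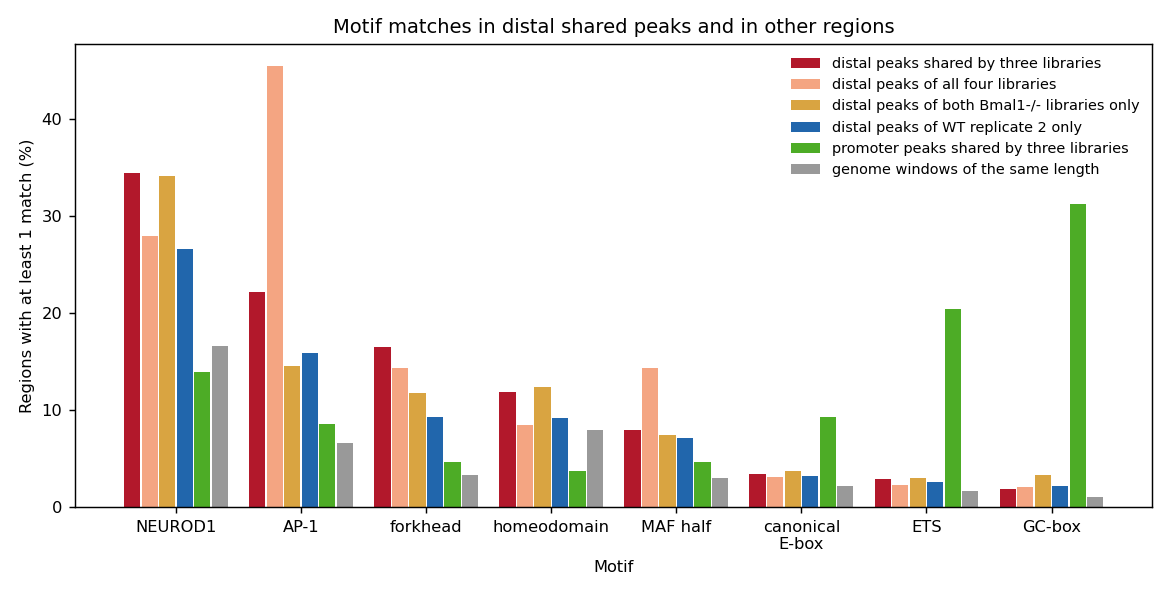
Share of regions (%) with at least 1 match to each of 8 motifs, for distal shared peaks and 5 other classes of region of the same length, as bars from 0. AP-1 letters stood at 22.2% in distal shared peaks and 45.5% in distal peaks of all 4 libraries, and ETS and GC-box letters were mostly at promoter peaks.

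Matches gathered at the peak centres. Within 50 bp of the centre, AP-1 letters occurred 8.12 times per 50 bp in 100 peaks, 4.50 times the rate 300 to 500 bp away (1.80). Forkhead letters were 5.64 times as frequent at the centre as in those flanks, MAF sites 2.77 times and NEUROD1 letters 2.19 times. The canonical E-box had the same rate at the centre and in the flanks (ratio 1.00), as did ETS letters (1.03), and the D-box, another clock element, had 0.80. Peaks with a canonical E-box (n = 48) had a median log2 ratio of 0.64, against 0.42 in those without, while their median WT replicate 2 signal was 10.1, against 11.6 without. For AP-1 letters the median log2 ratio was 0.43 with and 0.43 without, and for the D-box (n = 58) it was 0.35 with and 0.44 without. The canonical E-box gave the widest such gap of the motifs compared, and no gap was tested. In a ranking of all 6-letter words found in at least 5% of peaks, chosen after the values were seen, the words over 20% of peaks with the highest ratio to genome windows were GTAAAC (21.6% against 7.15%), CAGCTG (24.3% against 8.14%), GACTCA (25% against 10.1%) and GAGTCA (26.7% against 11%). CAGCTG is a further E-box bound by basic helix-loop-helix proteins. Without the 20% cut the first word was CGCAGC (5.27% against 1.70%), and other rarer words with CG, such as CGCTGC (5.84% against 1.98%), also ranked high. A match is a string of letters and not a measured binding site.

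**Figure D3:**
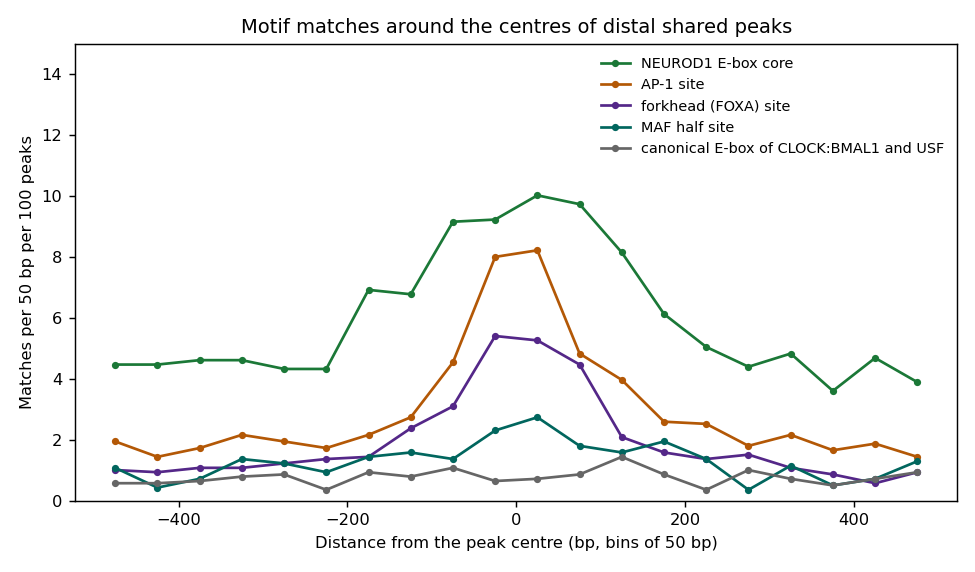
Matches per 50 bp in 100 distal shared peaks (y axis) against the distance from the peak centre in bp (x axis, bins of 50 bp) for 5 motifs, 1 line each. AP-1, forkhead and NEUROD1 letters peaked within 50 bp of the centre, and the canonical E-box was no more frequent at the centre (0.685) than 300 to 500 bp away (0.685).

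Per2, a repressor of the core clock and a target of CLOCK and BMAL1, was the exception in position. Its 4 distal shared peaks all had their centres in exons. The peak at chr1:91416956-91417178 had 142.9 and 35.4 in Bmal1-/- and 37.3 in WT replicate 2. The peak at chr1:91429341-91429563 had 62.0 and 20.1 in Bmal1-/- and 24.8 in WT replicate 2, that at chr1:91430886-91431108 had 54.2 and 16.7 in Bmal1-/- and 20.2 in WT replicate 2, and that at chr1:91444509-91444731 had 49.5 and 15.4 in Bmal1-/- and 15.5 in WT replicate 2. Bmal1-/- replicate 1 was thus 3.08 to 4.04 times Bmal1-/- replicate 2, while Bmal1-/- replicate 2 and WT replicate 2 were close. Of the 1386 peaks only these 4 had a log2 ratio between the Bmal1-/- replicates above 1.5. Their positive Bmal1-/- to WT ratios rest on Bmal1-/- replicate 1, and with Bmal1-/- replicate 2 alone the 4 log2 ratios were -0.30 to -0.01.

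Every THRAP3 peak over Per2 followed its exons. All 12 and 9 peaks of the Bmal1-/- libraries and all 4 and 11 of the WT libraries with a centre in the gene had that centre in an exon, although exons cover 13.5% of Per2. Summed over the gene, the signals were 882.0 and 213.3 in Bmal1-/- and 56.9 and 312.7 in WT. No other coding gene had more than 3 peaks touching its exons in any of the Bmal1-/- libraries or in WT replicate 2. The pattern was present in the WT libraries as well. The input libraries had 0.5 to 9 normalized tags at these peaks. Peaks that follow exons can come from spliced Per2 sequence, such as cDNA, plasmid or RNA-derived fragments, as well as from chromatin. The peak lists cannot tell these apart and the source was not tested, so the Per2 values are given as deposited and not as THRAP3 occupancy of the gene. Per2 mRNA was 9.17, 9.57 and 9.38 TPM in Bmal1-/- cells and 18.9, 16.6 and 17.4 TPM in WT cells, with no overlap (log2 fold change -0.84, SE 0.14, limma adjusted p = 8.33e-04). With the median of chromosome 1 subtracted the change was -0.49 (adjusted p = 0.0172) and no longer passed 0.01.

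**Figure D4:**
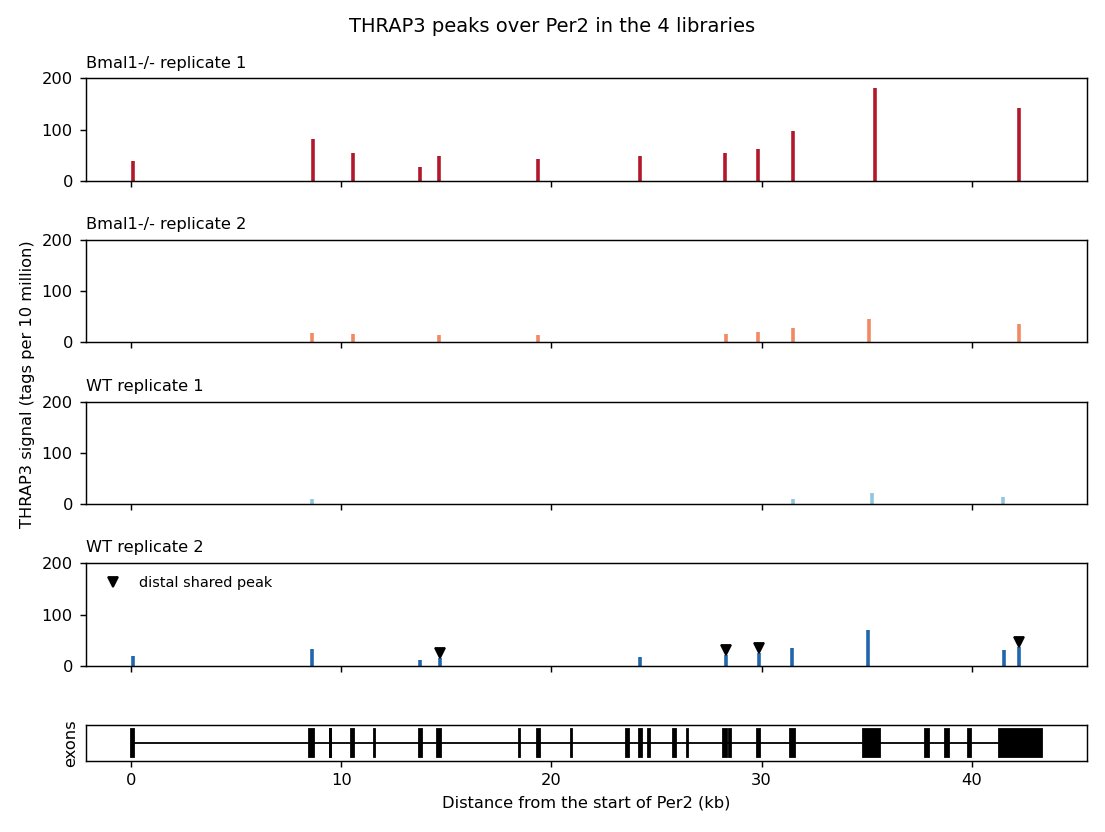
THRAP3 signal (normalized tag count) of each peak over Per2 against its distance from the start of the gene (kb), 1 panel per library, with exons as black boxes in the lowest panel and distal shared peaks marked by triangles. Every peak stood on an exon in all 4 libraries, and signals were highest in Bmal1-/- replicate 1 (up to 181.4).

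Expression was compared to see how genes at distal shared peaks behaved without BMAL1. Each peak was assigned to the measured gene with the nearest TSS, which gave 1174 genes at a median distance of 28.5 kb, and 900 of them passed the filter on low expression. Nearest genes had a median of 20.6 TPM in Bmal1-/- and 20.8 TPM in WT cells, against 16.2 TPM in both for all 15031 tested genes. In Bmal1-/- cells 59 of the 900 (6.56%) rose and 78 (8.67%) fell past a limma adjusted p of 0.01 and a log2 change of 1. Over all tested genes 3.83% rose and 7.97% fell. The median log2 fold change was -0.01 for nearest genes and -0.04 for all genes. Within 50 kb, 51 of 647 genes (7.88%) rose and 60 (9.27%) fell. In Clock-/- cells, compared with the same WT libraries, 28 nearest genes (3.11%) rose and 79 (8.78%) fell, where 2.62% of all genes rose and 4.78% fell. With no minimum fold, 102 (11.3%) rose and 207 (23.0%) fell in Clock-/- cells, against 9.5% and 14.4% of all genes. In Bmal1-/- cells the same rule called 199 rises (22.1%) and 215 falls (23.9%), against 18.4% and 21.0% of all genes. Nearness does not show that a peak acts on a gene. Arntl itself had 3.52, 3.32 and 3.41 TPM in Bmal1-/- and 3.63, 3.52 and 4.22 TPM in WT cells (log2 fold change -0.11, adjusted p = 0.539), and a value for the whole gene does not check the loss of 1 exon. Thrap3 was 79.6 ± 1.7 TPM in Bmal1-/- and 81.9 ± 8.0 TPM in WT cells (adjusted p = 0.852).

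The largest rise was that of Pla2g2f, a secreted phospholipase A2, with 83.5, 87.5 and 81.9 TPM in Bmal1-/- and 0.71, 0.14 and 0.37 TPM in WT cells (log2 fold change of TPM + 1, 5.94, SE 0.19, adjusted p = 2.48e-08). Its peak, 9.64 kb away, had 14.9 and 16 in Bmal1-/- and 12.4 in WT replicate 2. The gene was silent or nearly so in WT and also in Clock-/- cells (0.13, 0.41 and 0.82 TPM). Snx31, a sorting nexin, was 22.0, 22.9 and 24.3 TPM in Bmal1-/- and 1.03, 1.10 and 1.18 TPM in WT cells (3.52, adjusted p = 1.00e-07), with an intronic peak. Dab1, the adaptor of reelin signalling, rose by 2.49 and held 3 peaks, with log2 signal ratios of 0.59 to 1.32. Epb41l4a rose by 2.47, and Nqo1, a quinone reductase of the antioxidant response, by 2.29.

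Hadh, a mitochondrial enzyme of fatty acid oxidation that restrains insulin release, was 510.8, 497.8 and 502.0 TPM in Bmal1-/- and 110.3, 108.6 and 110.3 TPM in WT cells (2.19, SE 0.05, adjusted p = 3.92e-09). Its intronic peak had 14.1 and 18.0 in Bmal1-/- and 13.2 in WT replicate 2. B3gat1, a glucuronyltransferase, rose by 2.01, with its peak 526.6 kb away. Cry1, a clock repressor, was 116.9, 124.6 and 122.9 TPM in Bmal1-/- and 34.4, 29.8 and 26.9 TPM in WT cells (1.97, adjusted p = 5.92e-07). The Cry1 peak, 54.8 kb away, had 9.42 and 8.02 in Bmal1-/- and 11.6 in WT replicate 2. The transcript was thus higher in the knockout. Both Bmal1-/- peak signals lay inside the 95% Poisson interval of a WT replicate 2 peak at 11.6 (6.52 to 19.2), so no lower signal can be read from them.

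Among the falls Gabbr2, a subunit of the GABA-B receptor, came first with 1.16, 1.00 and 1.25 TPM in Bmal1-/- and 69.7, 70.2 and 57.5 TPM in WT cells (log2 fold change -4.96, SE 0.19, adjusted p = 5.30e-08). Its intronic peak had 18.8 and 18.0 in Bmal1-/- and 10.1 in WT replicate 2. The transcript was lower in the knockout. The difference in peak signal rests on a single WT library and few tags and was not tested. Aard was 11.9, 14.8 and 9.64 TPM in Bmal1-/- and 272.3, 261.4 and 289.0 TPM in WT cells (-4.41, adjusted p = 1.25e-07). Its peak lay 121.7 kb away. Nr4a1, an orphan nuclear receptor and immediate early gene, was 4.67, 4.11 and 5.45 TPM in Bmal1-/- and 90.1, 92.4 and 97.0 TPM in WT cells (-4.04, adjusted p = 4.46e-09). The Nr4a1 peak, 11.2 kb away, had 25.1 and 24.7 in Bmal1-/- and 16.3 in WT replicate 2.

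Oxtr, the oxytocin receptor, fell by 3.82 on the log2 scale, Ttyh1 had a log2 fold change of -3.55, Fbp1, a gluconeogenic enzyme, of -2.68 and Adtrp of -2.57. The log2 fold change of Snord83b was -2.93 (SE 0.46, adjusted p = 4.81e-04). Snord83b is a small nucleolar RNA that lies inside another gene, so its level is uncertain, and its 3 Bmal1-/- values (1.5, 0 and 3.5 TPM) spread widely against 13.5, 14.5 and 21.4 TPM in WT cells. Both Bmal1-/- signals lay above WT replicate 2 at the peaks nearest to these genes, except those of Cry1, Adtrp and Snord83b, whether the transcript had risen or fallen; the same held at 76.0% of all distal shared peaks.

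**Figure D5:**
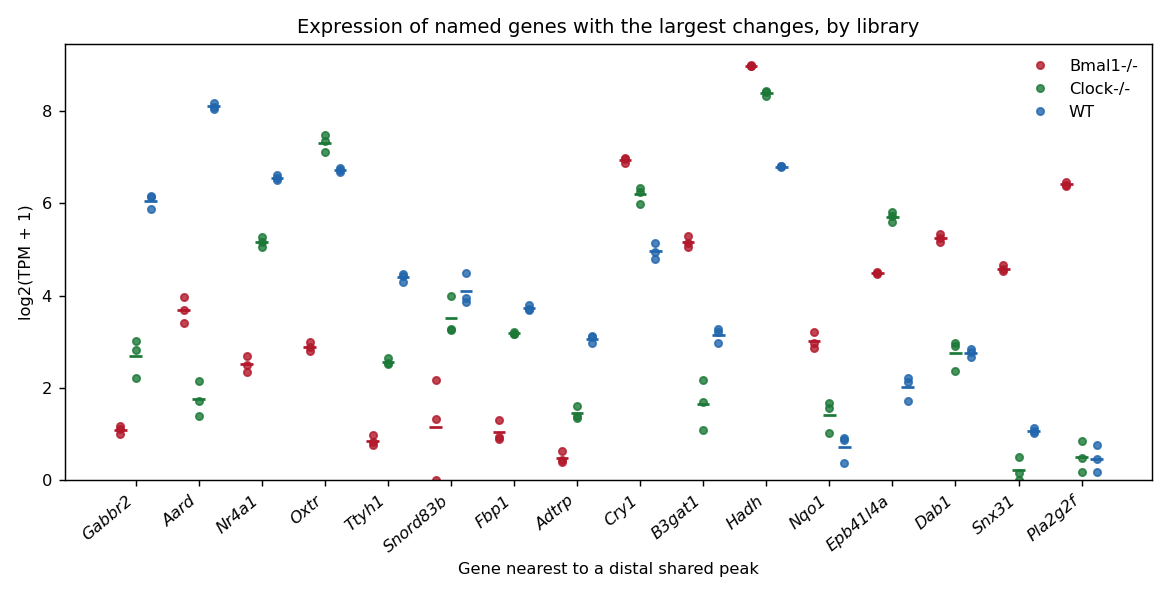
Expression as log2(TPM + 1) of the 16 named genes nearest to a distal shared peak, 8 with the largest falls on the left and 8 with the largest rises on the right. Points are single libraries of Bmal1-/-, Clock-/- and WT cells and bars their means. The genes were picked for the size of their change and run from Gabbr2 (-4.96) to Pla2g2f (5.94).

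Genes of β-cell identity drew 14 distal shared peaks to 9 of the 36 genes listed. The intronic peak of Slc30a8, the zinc transporter of insulin granules, was the strongest of them, with 34.6 and 43.4 in Bmal1-/- and 24.1 in WT replicate 2. A peak 8.09 kb from Mafa, an activator of the insulin genes, had 29.1 and 29.4 in Bmal1-/- and 10.9 in WT replicate 2. The peak 11.7 kb from Ins1 had 27.5 and 21.4 in Bmal1-/- and 19.4 in WT replicate 2. Nkx6-1, a factor of β-cell identity, had 3 peaks within 74.2 kb, and Abcc8, a subunit of the ATP-sensitive potassium channel, had 2. The Iapp peak, 8.71 kb from the gene for amylin, had 19.6 and 19.4 in Bmal1-/- and 18.6 in WT replicate 2. Pax6 and Glis3 had 1 peak each, with log2 ratios of 0.11 and 0.03. Of 10 markers of other islet endocrine cells none had such a peak, but only the 7 that were measured could be assigned one.

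Of the 8 of these genes that were tested, 3 rose and 3 fell at an adjusted p of 0.01 with no minimum fold, where 18.4% of all genes rose and 21.0% fell. Nkx6-1 was 641.7, 642.5 and 655.7 TPM in Bmal1-/- and 273.3, 271.7 and 249.7 TPM in WT cells (log2 fold change 1.29, SE 0.06, adjusted p = 3.30e-07). Glis3 rose by 1.32 and Pax6 by 0.33. Slc30a8 was 660.4, 745.4 and 696.6 TPM in Bmal1-/- and 1185, 1142 and 1084 TPM in WT cells (-0.70, adjusted p = 6.61e-04), a change of -0.45 (adjusted p = 0.00883) with the median of chromosome 15 subtracted. Mafa fell by 0.50 (adjusted p = 0.00161), but with that median subtracted its change was -0.25 (adjusted p = 0.0504). Iapp fell by 0.52 (adjusted p = 9.64e-04), though in a fit with no filter on low values the adjusted p was 0.0233. Pax6 lost its call without WT replicate 1, 2 or 3 or Bmal1-/- replicate 2 or 3, with adjusted p of 0.0158, 0.0219, 0.0312, 0.0337 and 0.0318 in that order, and kept it without Bmal1-/- replicate 1 (0.00449). Ins1 was 2567, 2319 and 2197 TPM in Bmal1-/- and 2277, 2359 and 2284 TPM in WT cells, with overlap (adjusted p = 0.734), and Abcc8 had an adjusted p of 0.323. In the 33 tested genes of the whole list, 7 rose and 10 fell.

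Slc30a8 and Aard are neighbours on chromosome 15. The 295.7 kb from the start of Aard to the end of Slc30a8 held 6 and 5 peaks in Bmal1-/-, against 1 and 4 in WT, and 3 of the 4 peaks of WT replicate 2 were distal shared peaks. That at chr15:52161719-52161941 had 30.6 and 32.1 in Bmal1-/- and 21.0 in WT replicate 2. That at chr15:52217581-52217803 had 27.5 and 22.7 in Bmal1-/- and 10.9 in WT replicate 2, and the third was the Slc30a8 intron peak above. Signals were higher in both Bmal1-/- libraries at all 3, as at 76.0% of all distal shared peaks, and the transcripts of both flanking genes were lower. On chromosome 15 as a whole the median log2 signal ratio was 0.67 and the median log2 fold change of tested genes was -0.25. At the 3 peaks the log2 ratios were 0.58, 1.20 and 0.69. A link between the peaks and the transcripts was not tested.

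Genes of cAMP and G-protein signalling, which amplify insulin release, had 27 distal shared peaks at 15 of 53 genes. Examples were an intronic peak of Prkacb (36.9 and 33.4 in Bmal1-/- and 27.2 in WT replicate 2) and a peak nearest to Prkd1, protein kinase D (36.9 and 39.4 in Bmal1-/- and 27.9 in WT replicate 2). At an adjusted p of 0.01 with no minimum fold, the rule of all the list counts here (18.4% of all genes rose and 21.0% fell), 2 of 14 tested rose and 4 fell, and 5 rose and 13 fell of the 45 tested in the whole list. Prkacb rose by 0.97 (adjusted p = 7.73e-05), with 146.1 ± 8.7 TPM in Bmal1-/- and 74.2 ± 5.1 TPM in WT cells. Regulated secretion had 19 peaks at 13 of 52 genes, and 2 of 12 tested rose and 3 fell, against 18.4% and 21.0% of all genes, with 14 rises and 16 falls among 50 in the whole list. Cadps, a priming factor of dense-core granules, rose by 0.66 (adjusted p = 2.79e-04). Chga, a granule protein, had a peak with 22.8 and 19.4 in Bmal1-/- and 26.4 in WT replicate 2. That difference rests on a single WT library and few tags and was not tested. The Chga transcript had a limma adjusted p of 0.105. Scg2 had 4 peaks nearest to it and a log2 change of 0.14 (adjusted p = 0.126), or 0.50 (adjusted p = 3.50e-04) with the median of chromosome 1 subtracted. For the potassium and calcium channel subunits there were 13 peaks at 8 of 52 genes, and 2 of 8 tested rose and 1 fell, against 18.4% and 21.0% of all genes, with 6 rises and 9 falls among 36 in the whole list. Kcnj6, an inward rectifier, held 3 of them and rose by 0.89 (adjusted p = 0.00155).

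A list of SR proteins, hnRNPs and other splicing regulators, several of them neuronal, had 11 peaks at 9 of 68 genes, namely Srrm1, Srrm4, Rbfox1, Rbfox3, Celf4, Elavl2, Elavl4, Nova1 and Qk. Their WT replicate 2 signals were 8.54 to 15.5. By the same rule 1 of 8 tested rose and 2 fell, against 18.4% and 21.0% of all genes, and 4 rose and 19 fell of the 66 tested in the whole list. Srrm4, which drives inclusion of neuronal microexons, was 2.44 ± 0.12 TPM in Bmal1-/- and 8.14 ± 1.21 TPM in WT cells (-1.40, adjusted p = 1.79e-05). The calls of Nova1 (0.58, adjusted p = 0.00378) and Elavl2 (-0.72, adjusted p = 0.00354) were each lost in 5 of 6 fits that left out 1 library, with adjusted p up to 0.0172 (without Bmal1-/- replicate 2) for Nova1 and 0.0177 (without WT replicate 2) for Elavl2. AP-1 and stress response factors had 8 peaks at 6 of 41 genes, Nr4a1 being the 1 of 5 tested that fell, against 21.0% of all genes, with 5 rises and 16 falls among 36 in the whole list. In Bach1, a repressor related to AP-1, an intronic peak with AP-1 letters had 29.8 and 30.1 in Bmal1-/- and 19.4 in WT replicate 2, and the transcript had an adjusted p of 0.712. Core clock genes had 5 peaks, the 4 in Per2 and 1 near Cry1. Genes of E-box and ETS factors had 4, nearest to 3 of 40 genes: Myc (96.5 and 390.3 kb away), Mycn (130.3 kb away) and Etv1. By the same rule 0 of 3 tested rose and 1 fell, against 18.4% and 21.0% of all genes. In the whole list 10 rose and 5 fell of the 33 tested. Etv1, an ETS factor, averaged 58.1 ± 4.5 TPM in Bmal1-/- and 123.5 ± 13.2 TPM in WT cells (-1.07, adjusted p = 3.92e-04), with its peak 145.1 kb away. Hes6, a neighbour of Per2 and the measured gene with the nearest start to 3 of the 4 Per2 peaks, rose by 0.54 (adjusted p = 9.77e-04), or by 0.89 (adjusted p = 4.35e-05) with the median of chromosome 1 subtracted.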

How the data were processed

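THRAP3 ChIP-seq peaks and RNA-seq expression were taken as deposited by the authors. The authors aligned ChIP-seq reads to mm10 with Bowtie2 2.2.4 and called peaks with HOMER for each library over the input of its genotype, so replicates were not pooled. Per the file headers, a peak needed a false discovery rate of 0.001 and at least 4-fold more tags than input and than the surrounding 10 kb. The deposited signal is a tag count normalized to 10000000 tags per library, and the deposited fold over input and p-value columns are ratios and probabilities from HOMER. A focus ratio (a fraction) and a peak score, also deposited, were not used for results. The deposited TPM values came from reads aligned with STAR 2.5.0 and counted by the authors with featureCounts 1.5.3, and tables of the authors' own fold changes and p-values (DESeq2 1.22.1) were not used. The eCLIP samples were not analysed here.

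Overlaps, distances to TSSs of GENCODE vM21 (mm10) and motif matches in GRCm38.p6 were computed with Python 3.11.15. Of 20600 genes in the TPM table, 20500 matched the annotation. Sequences of peaks were read from the RefSeq assembly. Genes were tested with limma 3.58.1 (lmFit, eBayes with trend) on log2(TPM + 1), which understates changes of low genes, in 1 fit of all 9 libraries, for 15031 genes with at least 1 TPM in at least 3 libraries, with Benjamini-Hochberg adjustment over all of them. The 3 libraries of a group were wells of 1 line, so p-values measure the spread between wells. Read depth of the RNA-seq libraries is unknown from TPM. The fit and the overlap code were tested on simulated data.

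The members and gene lists were chosen with earlier results of these data known. Named were the 10 peaks with the largest mean signal, 3 with the highest and 3 with the lowest ratio, peaks at genes of set lists (up to 4 per list, or all for clock, β-cell and splicing genes), and, among nearest genes of at least 5 TPM, the 8 largest rises and 8 largest falls past the test. Other genes named were chosen after their values were seen. Intervals cover counting error only. Some items of the lists are not reported here.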

Additional observations from a re-analysis of the deposited data

How the results depend on the processing

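The number of distal shared peaks was 958 when 50% of the peak had to be covered and 1123 with a distance of 5 kb, and it dropped to 454 when every peak had to reach 8-fold over input, a stricter rule by construction. Leaving 1 library out of the rule gave 1777 to 1892 peaks. The median log2 signal ratio of 0.43 was 0.28 from fold over input in place of signal and 0.37 with the 8-fold rule, and 0.42 to 0.45 with 1 Bmal1-/- library alone. It was 0.43 without the Per2 peaks and 0.43 without tandem repeats, both alternatives chosen after seeing the data. The intron share was 51.2% with the 8-fold rule and 47.9% with protein-coding genes only, and the share with NEUROD1 letters 31.8% with the 8-fold rule. AP-1 and forkhead shares stayed within their counting intervals under every alternative.

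With no minimum fold change, 199 of 900 nearest genes (22.1%) rose and 215 (23.9%) fell, against 18.4% and 21.0% of all tested genes. With the gene that holds the peak used instead, 32 of 521 tested (6.14%) rose and 40 (7.68%) fell past the main rule. Over all tested genes that rule gave 3.83% and 7.97%. Leaving out 1 RNA-seq library gave 52 to 63 rises and 69 to 84 falls. Replicate numbers did not pair the wells: deviations of same-numbered libraries correlated at -0.21 to 0.07. A fit with the replicate number as a block called 58 rises and 77 falls. Under that block 4 of 67 named genes lost their call (Elavl2, Nova1, Pax6 and Kcnmb2), and no named gene with a call changed sign in any fit. Subtracting chromosome medians gave 65 rises and 68 falls. Shares over all genes under the alternative fits are not given here, so their counts show only how stable the calls were. The signal ratios are limited by the single WT ChIP-seq library with these peaks and by 15 to 23 tags at a typical peak. The estimated share of tags in peaks was also lower in that library, WT replicate 2 (0.76%), than in Bmal1-/- (1.86% and 1.67%). WT replicate 1, with low enrichment, entered the selection but not the ratios, for which no test was made.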
